A study of Xenopus laevis with 10 samples.

Results

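The Krueppel-like factors (KLF) and the Sp proteins form a family of transcription factors. They were followed here in the intestinal tubes of fed and unfed tadpoles of Xenopus laevis, a frog whose allotetraploid genome holds many genes as 2 copies, marked .L and .S. Members were the genes whose deposited description holds the words Krueppel-like factor (or Kruppel-like factor), Sp transcription factor, or transcription factor Sp followed by a number. The rule gave 41 of the 33772 genes of the tables, and 32 of the 41 passed the filter on low counts.

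Proteins of this family share a block of zinc fingers near their end that binds GC-rich and CACCC-type stretches in promoters and enhancers, while the rest of the protein differs and recruits corepressors or coactivators. In the gut of mammals klf5 is known for proliferating crypt cells and klf4 for differentiated and goblet cells. In tadpoles klf9 is a direct target of thyroid hormone, the hormone that drives metamorphosis, and in vertebrates klf9 and klf15 are raised by glucocorticoids.

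RNA was sequenced from 10 libraries in 2 experiments. Fed tadpoles gave 5 libraries and unfed tadpoles gave 5, at the same ages: 10 and 13 days post fertilization (dpf) in experiment 1, and 10, 13 and 16 dpf in experiment 2. Animals were kept at 19 °C. A library is a pool of 20 to 26 tubes, and so a mixture of many animals. The labels do not say whether libraries came from separate clutches or tanks, and p-values therefore measure only the spread between these libraries. In experiment 1 the title and the stage field give different ages for 2 libraries, and the title was used. The stage field gives 10 dpf for the fed 13 dpf library and 13 dpf for the unfed 10 dpf library. By that field both fed libraries of experiment 1 are of 10 dpf and both unfed ones of 13 dpf. Age and feeding then cannot be told apart within experiment 1.

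Gene totals ran from 6999502 to 9934698 counts a library, and 23825 genes were tested. The tissue label was checked against 33 genes of the intestinal epithelium, such as brush border and gut identity genes. Their summed share of gene counts was 1.76 to 2.19% in the fed tubes, against 0.889 to 2.56% in the unfed tubes, and none was at 0 in all libraries. A list of 27 genes of pancreas and liver, which border the tube, held 2.48 to 3.47% in the fed tubes, against 1.02 to 2.80% in the unfed tubes. Most counts of that list were in an apolipoprotein gene pair. How much neighbouring tissue the tubes held was not tested. In whole tubes, fewer cells of a type and less RNA per cell cannot be told apart.

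The main comparison asked which genes of the family differed between fed and unfed tubes over all ages. More members were lower than higher in fed tubes. Of the 32 tested members 16 fell and 3 rose (edgeR's quasi-likelihood test, Benjamini-Hochberg adjusted p under 0.05 over all genes tested), while 13 did not pass. Among all 23825 genes tested 24.5% fell and 24.4% rose, 48.8% in all, against 50% lower and 9.38% higher among the tested members. The list as a whole was not tested. The median log2 fold change (fed over unfed) was -0.61 for the 32 tested members and -0.03 for all genes tested. The largest falls were in klf15.L, klf15.S, both klf9 genes, a klf8 gene and klf12.L. The members that rose were klf10.S, klf13.S and a klf2 gene without a symbol, and each changed by less than 1 log2 unit.

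In 13 of the tested members (40.6%) all 5 fed libraries lay below all 5 unfed libraries, against 13.5% of all genes tested. No member had all fed libraries above all unfed ones, against 15.1% of all genes tested. The 41 members together took 0.0259 to 0.0291% of gene counts in the fed libraries, against 0.0432 to 0.0587% in the unfed ones. These ranges did not overlap. Genes with a klf or sp symbol that the rule missed are not in this sum.

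**Figure D1:**
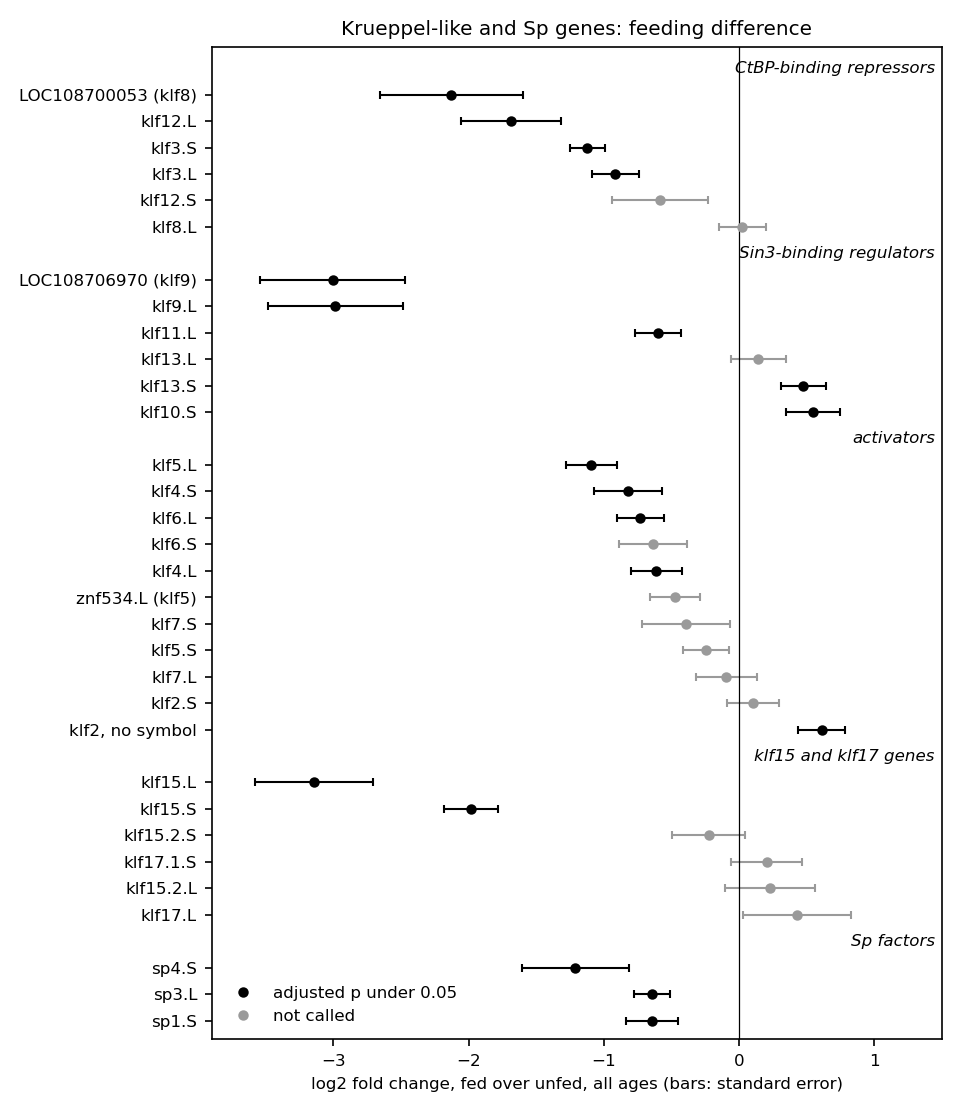
Log2 fold change of fed over unfed libraries over all ages (x axis) with its standard error for the 32 tested members, grouped by role. Black points have an adjusted p under 0.05, and 16 of these 19 lie left of 0; klf15.L and both klf9 genes lie near -3.

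In the sentences on single genes, counts scaled to library size (CPM) are listed for experiment 1 at 10 and 13 dpf and then for experiment 2 at 10, 13 and 16 dpf.

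Klf15 is known in mammals as a factor of fasting that promotes amino acid breakdown and glucose production in liver and muscle. Both copies of klf15 fell in fed tubes. The klf15.L values were 6.13, 5.92, 4.97, 1.496 and 1.06 CPM in fed libraries, against 27.2, 36.0, 27.6, 33.9 and 46.1 CPM in unfed libraries. Every fed library lay far below every unfed one, and the lowest fed values were those at 13 and 16 dpf of experiment 2. On the log2 scale the fold change was -3.15 ± 0.43 (SE, adjusted p = 0.000726).

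For klf15.S the values were 4.26, 6.17, 2.42, 2.45 and 3.19 CPM in fed libraries, against 13.5, 18.0, 9.44, 10.5 and 22.5 CPM in unfed libraries. The groups again did not overlap, and the log2 fold change was -1.98 ± 0.20 (adjusted p = 2.86e-05). A further klf15 pair, named klf15.2 in the RefSeq table, did not pass the test. The klf15.2.L gene ran from 0.876 to 3.88 CPM in fed libraries and from 1.15 to 3.04 CPM in unfed libraries, and the log2 fold change was 0.23 ± 0.33 (adjusted p = 0.595). The klf15.2.S gene ran from 2.30 to 10.7 CPM in fed libraries and from 2.69 to 12.2 CPM in unfed libraries, and the log2 fold change was -0.23 ± 0.27 (adjusted p = 0.512). In both feeding states its values in experiment 2 lay above those in experiment 1.

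The klf17 genes did not pass the test either. The log2 fold change was 0.43 ± 0.40 for klf17.L (adjusted p = 0.3997). It was 0.20 ± 0.26 for klf17.1.S (adjusted p = 0.547), a gene whose deposited description calls it a gut Krueppel-like factor 4. The signs of these changes and of both klf15.2 genes turned under some alternatives.

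Klf9, klf10, klf11 and klf13 carry a motif that binds the Sin3 corepressor. Klf9 was represented by klf9.L and by LOC108706970, a gene with the deposited description Krueppel-like factor 9, and both fell. The klf9.L values were 1.25, 0.604, 0.485, 0.272 and 0.152 CPM in fed libraries, against 3.55, 3.19, 2.43, 5.09 and 11.3 CPM in unfed libraries. No fed value reached the unfed range, the highest unfed value was at 16 dpf, and the log2 fold change was -2.99 ± 0.50 (adjusted p = 0.000874). In fed libraries these values rested on few reads, 10 counts at most.

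The LOC108706970 values were 2.88, 2.30, 0.727, 0.136 and 0.152 CPM in fed libraries, against 9.97, 10.4, 4.04, 8.70 and 16.2 CPM in unfed libraries. The ranges of the states lay apart, and the log2 fold change was -3.00 ± 0.54 (adjusted p = 0.00212). In both feeding states, at 10 and at 13 dpf, the library of experiment 1 was above that of experiment 2.

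Klf10 and klf11 are known as early genes of the TGF-beta response. The klf10.S gene rose, with 27.2 to 49.0 CPM in fed libraries, against 18.3 to 28.6 CPM in unfed libraries. It was higher in the fed library of all 5 pairs of the same experiment and age although the groups overlapped, and the log2 fold change was 0.54 ± 0.20 (adjusted p = 0.0419). That call was lost without either 16 dpf library, either 10 dpf library of experiment 1 or either 13 dpf library of experiment 2 (adjusted p = 0.0528 to 0.151), and with the age of the stage field (adjusted p = 0.0785). The log2 fold change was 0.33 without the fed 16 dpf library and 0.32 without the unfed one. With each experiment alone the gene was not called (adjusted p = 0.243 for experiment 1 and 0.124 for experiment 2).

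The klf11.L gene fell. Its values were 3.88, 4.59, 4.36, 4.35 and 4.25 CPM in fed libraries, against 4.60, 7.01, 6.88, 7.35 and 7.07 CPM in unfed libraries. The lowest unfed value, at 10 dpf in experiment 1, lay only just above the highest fed value, and the log2 fold change was -0.60 ± 0.17 (adjusted p = 0.0124). Experiment 1 alone did not give the call (-0.44).

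The klf13.S gene rose, with 4.40 to 7.64 CPM in fed libraries, against 3.34 to 6.04 CPM in unfed libraries. Its log2 fold change was 0.48 ± 0.17 (adjusted p = 0.0327), with the fed library higher in all 5 pairs. With each experiment alone the gene was not called (0.31 in experiment 1 and 0.61 in experiment 2). The call was lost without any single library of experiment 2 or without the unfed 13 dpf library of experiment 1 (adjusted p = 0.0534 to 0.0964), and DESeq2 on all libraries did not make it (adjusted p = 0.0907). The klf13.L gene ran from 5.46 to 13.8 CPM in fed libraries and from 5.20 to 8.63 CPM in unfed libraries, and its log2 fold change of 0.14 ± 0.20 did not pass (adjusted p = 0.592).

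Klf3, klf8 and klf12 are repressors that recruit the corepressor CtBP. Of their 6 genes 4 fell (66.7%), against 24.5% of all genes tested. The klf3.L values were 5.13, 8.46, 6.79, 6.80 and 8.04 CPM in fed libraries, against 14.8, 15.2, 13.75, 10.7 and 11.97 CPM in unfed libraries. The groups did not overlap, and the log2 fold change was -0.91 ± 0.18 (adjusted p = 0.00139).

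The klf3.S values were 8.01, 9.79, 9.94, 10.2 and 13.2 CPM in fed libraries, against 17.65, 20.3, 24.0, 21.4 and 28.1 CPM in unfed libraries. Here too the groups lay apart, and the log2 fold change was -1.12 ± 0.13 (adjusted p = 5.53e-05). Klf3.S was higher than klf3.L in every library of both feeding states.

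Klf12 is known as a repressor of the AP-2 alpha gene. The klf12.L values were 1.001, 0.967, 1.21, 0.136 and 1.06 CPM in fed libraries, against 3.55, 2.13, 2.02, 3.28 and 3.14 CPM in unfed libraries. All fed values were below all unfed ones, and the log2 fold change was -1.69 ± 0.37 (adjusted p = 0.00299). The klf12.S values were 0.626, 0.604, 0.727, 0.816 and 1.21 CPM in fed libraries, against 1.34, 0.850, 0.809, 1.58 and 1.28 CPM in unfed libraries, and the log2 fold change of -0.58 ± 0.35 did not pass (adjusted p = 0.192).

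The 2 klf8 genes differed in their results. LOC108700053, with the deposited description Krueppel-like factor 8, held 5.13, 1.57, 0.606, 0.952 and 1.97 CPM in fed libraries, against 3.74, 12.4, 8.22, 7.01 and 11.3 CPM in unfed libraries. At 10 dpf in experiment 1 the fed library was the higher of the pair, and in the other 4 pairs the fed library was lower. It fell by 2.13 ± 0.53 on the log2 scale (adjusted p = 0.0111), and the adjusted p was 0.0514 without the fed 16 dpf library. Experiment 1 alone did not give the call (-1.17). The klf8.L gene ran from 7.98 to 20.0 CPM in fed libraries and from 12.4 to 19.3 CPM in unfed libraries, and the log2 fold change was 0.02 ± 0.18 (adjusted p = 0.921). The difference between these changes was not tested.

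**Figure D2:**
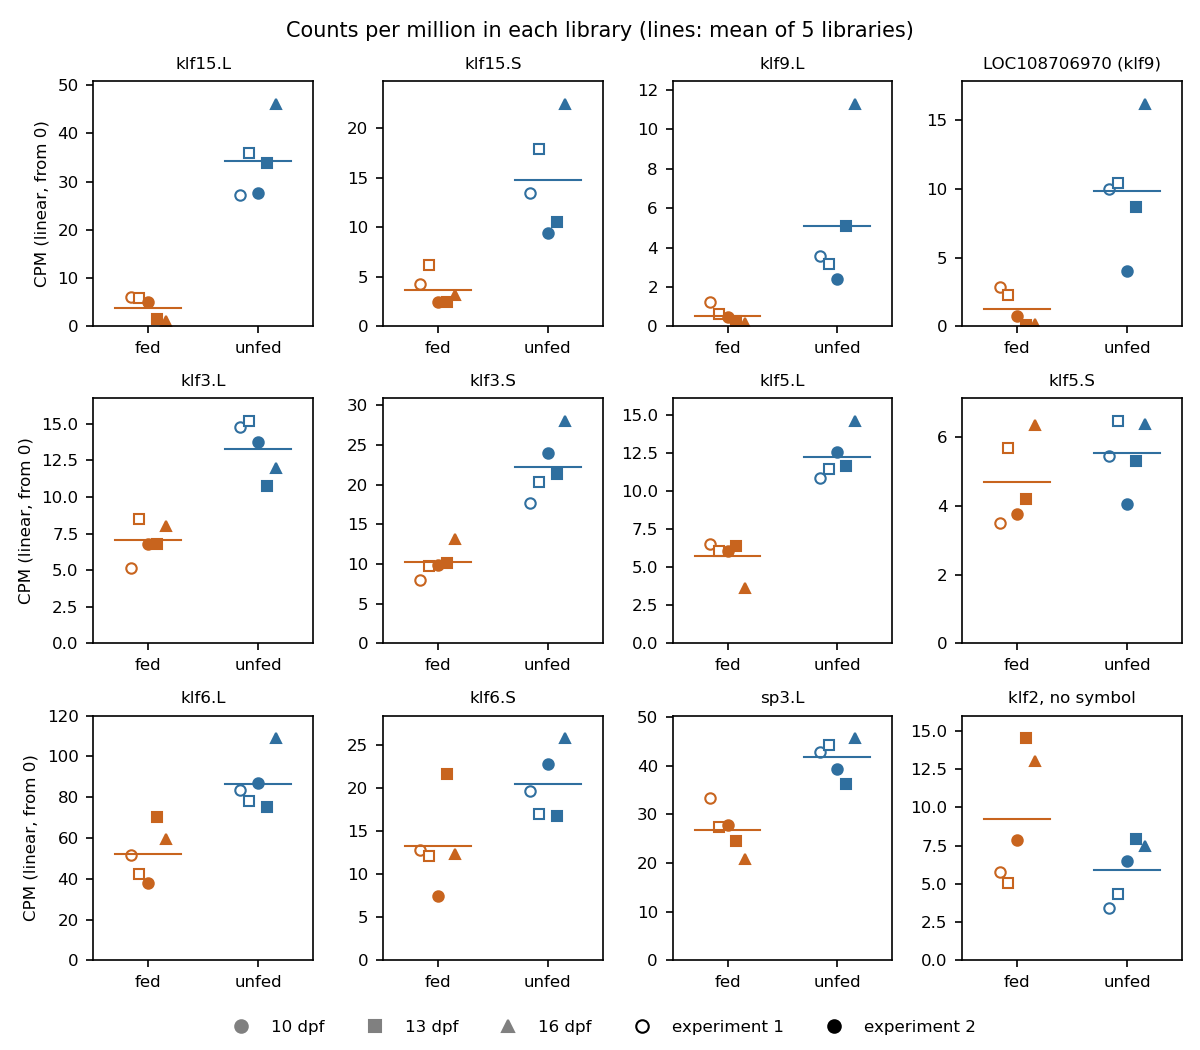
CPM in each library (y axis, linear from 0) for 12 members, fed libraries left of unfed ones, with the mean of 5 libraries as a line. In klf15, klf9, klf3, klf5.L, klf6.L and sp3.L all fed points lie below all unfed points, whereas klf5.S, klf6.S and the klf2 gene overlap.

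The klf1, klf2, klf4, klf5, klf6 and klf7 genes encode mainly activators. Of their 11 tested genes 4 fell (36.4%) and 1 rose (9.09%), 45.5% in all. Among all genes tested 24.5% fell and 24.4% rose, 48.8% in all. Klf5 is the factor of proliferating crypt cells named above. The klf5.L values were 6.51, 6.04, 6.06, 6.39 and 3.64 CPM in fed libraries, against 10.8, 11.5, 12.5, 11.6 and 14.6 CPM in unfed libraries. Within each feeding state the 10 and 13 dpf libraries lay close together, the groups did not overlap, and the log2 fold change was -1.09 ± 0.19 (adjusted p = 0.000671).

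The klf5.S values were 3.50, 5.68, 3.76, 4.22 and 6.37 CPM in fed libraries, against 5.47, 6.48, 4.04, 5.31 and 6.38 CPM in unfed libraries. The groups overlapped, and the log2 fold change of -0.25 ± 0.17 did not pass (adjusted p = 0.251). Another gene described as Krueppel-like factor 5, named znf534.L in the RefSeq table, ran from 22.3 to 48.0 CPM in fed libraries and from 32.8 to 61.9 CPM in unfed libraries. It was lower in the fed library of all 5 pairs, and its log2 fold change of -0.47 ± 0.19 just missed the threshold (adjusted p = 0.0521). It was called lower under 6 alternatives, namely RLE size factors (adjusted p = 0.0471), the age of the stage field (-0.80, adjusted p = 0.00215), experiment 2 alone (adjusted p = 0.0231), and without the fed 13 dpf or the unfed 10 dpf library of experiment 1 or the fed 10 dpf library of experiment 2 (adjusted p = 0.0187 to 0.035).

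Klf4 marks differentiated epithelium in mammals. The klf4.L values were 4.76, 4.11, 3.999, 6.53 and 4.70 CPM in fed libraries, against 8.34, 6.70, 6.74, 7.12 and 7.75 CPM in unfed libraries. The highest fed value, at 13 dpf in experiment 2, came close to the lowest unfed values. Klf4.L had a log2 fold change of -0.61 ± 0.19 (adjusted p = 0.0180). With each experiment alone the gene was not called (-0.77 in experiment 1 and -0.50 in experiment 2). The adjusted p was 0.0550 without the fed 13 dpf library of experiment 1, 0.0553 without the unfed 10 dpf library of experiment 1 and 0.0589 without the fed 10 dpf library of experiment 2.

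The klf4.S gene was present at lower CPM, with 0.876, 0.967, 1.21, 1.63 and 1.52 CPM in fed libraries, against 1.73, 2.13, 1.75, 2.49 and 2.85 CPM in unfed libraries. The groups did not overlap, and the log2 fold change was -0.82 ± 0.25 (adjusted p = 0.0175). DESeq2 gave an adjusted p of 0.0633, and edgeR with the age of the stage field gave 0.0653. Klf4.S was not called with either experiment alone (-1.06 in experiment 1 and -0.67 in experiment 2). A further klf4 gene, LOC108715571, was not tested, with at most 6 counts in any library.

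Klf6 is broadly expressed and responds early to injury in mammals. The klf6.L values were 51.4, 42.3, 37.8, 70.2 and 59.3 CPM in fed libraries, against 83.5, 78.1, 87.0, 75.2 and 109.1 CPM in unfed libraries. All fed values were below all unfed ones, although the fed 13 dpf library of experiment 2 came within reach of its unfed partner. Klf6.L had a log2 fold change of -0.73 ± 0.17 (adjusted p = 0.00473).

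The klf6.S values were 12.8, 12.1, 7.51, 21.6 and 12.3 CPM in fed libraries, against 19.7, 17.0, 22.8, 16.7 and 25.8 CPM in unfed libraries. The same fed 13 dpf library stood above 3 of the unfed ones. The log2 fold change of -0.64 ± 0.25 did not pass (adjusted p = 0.0563), and without that library it was -0.96 (adjusted p = 0.00276). The gene was also called lower without the unfed 13 dpf library of experiment 2 (-0.79, adjusted p = 0.0357), after removal of the length trend (-0.96, adjusted p = 0.00793) and by DESeq2 on all libraries (-0.64, adjusted p = 0.0403).

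The klf7 genes, known from neurons, did not pass. Klf7.L ran from 2.12 to 4.22 CPM in fed libraries and from 2.76 to 3.62 CPM in unfed libraries, and klf7.S ran from 0.910 to 1.454 CPM in fed libraries and from 0.957 to 2.04 CPM in unfed libraries.

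Klf2 is a factor of quiescent endothelium in mammals. A klf2 gene that has no symbol in the RefSeq table rose, with 5.76, 5.08, 7.88, 14.55 and 13.0 CPM in fed libraries, against 3.45, 4.36, 6.47, 7.91 and 7.46 CPM in unfed libraries. The fed library was higher in all 5 pairs, the groups overlapped, and in both feeding states experiment 2 was higher than experiment 1. The log2 fold change was 0.61 ± 0.18 (adjusted p = 0.0135), and the adjusted p was 0.0672 without the fed 13 dpf library of experiment 2. Experiment 1 alone did not give the call (0.47). The klf2.S gene ran from 4.63 to 14.1 CPM in fed libraries and from 5.63 to 8.63 CPM in unfed libraries, and its log2 fold change of 0.10 ± 0.20 did not pass (adjusted p = 0.688).

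The 26 blood vessel markers tested, read beside klf2, had 1 gene higher and 8 lower in fed tubes. Among all genes tested 24.4% were higher and 24.5% lower. The summed level of these markers was 0.0154 to 0.0209% of gene counts in fed libraries, against 0.0225 to 0.0285% in unfed libraries. Their part in the klf2 result was not tested.

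Klf1 is the erythroid Krueppel-like factor, and it was too low to be tested. The gene with this description had 0, 0, 2, 2 and 1 counts in fed libraries, against 6, 3, 8, 9 and 8 counts in unfed libraries. Every unfed library had more counts than every fed one. Of the 22 red blood cell markers tested, 9 were higher in fed tubes and the other 13 did not pass, against 24.4% higher among all genes tested. The summed level of these markers was 0.246 to 0.919% of gene counts in fed libraries, against 0.0656 to 0.506% in unfed libraries. Their part in the klf1 counts was not tested.

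Sp1 and Sp3 are present in most cells and bind GC boxes of many promoters, Sp1 mostly as an activator and Sp3 as either activator or repressor. All 3 tested Sp members fell, against 24.5% of all genes tested. The sp3.L values were 33.4, 27.3, 27.75, 24.6 and 20.9 CPM in fed libraries, against 42.9, 44.3, 39.2, 36.3 and 45.7 CPM in unfed libraries. The groups did not overlap, the lowest fed and the highest unfed value were both at 16 dpf, and the log2 fold change was -0.65 ± 0.13 (adjusted p = 0.00219). Experiment 1 alone did not give the call (-0.54).

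The sp1.S values were 13.1, 10.8, 7.999, 5.98 and 15.6 CPM in fed libraries, against 17.0, 16.05, 16.2, 16.2 and 15.0 CPM in unfed libraries. The unfed libraries were nearly level, whereas the fed ones spread widely and the one at 16 dpf stood above its unfed partner. Sp1.S had a log2 fold change of -0.64 ± 0.19 (adjusted p = 0.0163). With each experiment alone the gene was not called (-0.48 in experiment 1 and -0.745 in experiment 2). The adjusted p was 0.0571 without the fed 10 dpf library and 0.0518 without the unfed 13 dpf library, both of experiment 2.

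Sp4 is known from neurons. The sp4.S gene ran from 0.242 to 1.63 CPM in fed libraries and from 1.44 to 3.17 CPM in unfed libraries, and fell, the log2 fold change being -1.21 ± 0.39 (adjusted p = 0.0239). Experiment 1 alone did not give the call (-0.42). The call was lost without any single library of experiment 2 or without the fed 13 dpf library of experiment 1 (adjusted p = 0.0512 to 0.0782).

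The other 7 Sp members are factors of embryonic patterning, teeth and bone, and they did not pass the filter. Of these sp5l.L, sp9.L and sp9.S had no count in any library, and sp6.L, sp6.S and sp7.S had 1 count at most in any library. A floor of 3 counts corresponded to 0.288 to 0.455 CPM in a library. Nonzero values below it, which also occur in klf9.L, LOC108706970, klf12.L and sp4.S, rest on 1 or 2 counts. The sp8.S gene had 0 to 9 counts in fed libraries and 2 to 8 counts in unfed libraries.

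The rule missed 12 genes that carry a klf or sp symbol but a description in other words. Most are Sp genes with the number placed first, such as Sp1 transcription factor for sp1.L. Of the 12 genes 7 were tested. Of these 5 fell and the other 2 did not pass, against 24.5% lower among all genes tested. Sp1.L averaged 23.4 ± 2.6 CPM in fed libraries and 34.5 ± 2.4 CPM in unfed libraries (SD, n = 5 each). Sp3.S averaged 23.4 ± 3.8 CPM in fed libraries and 33.1 ± 2.5 CPM in unfed libraries. Both had groups that did not overlap, as had the member sp3.L, whereas those of the member sp1.S overlapped. The other genes called lower were sp4.L (-1.55 ± 0.28), sp2.S (-1.05 ± 0.21) and klf10.L (-0.46 ± 0.15), each a log2 fold change with its SE. These 12 genes were set beside the members after their values were seen.

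Levels between genes were compared per transcript length, as CPM per kilobase. They therefore rest on the deposited lengths, such as 855 bases for klf6.S and 3083 bases for klf6.L. In unfed libraries klf6.L was the highest member at 28.1 ± 4.4 CPM per kilobase, followed by klf6.S at 23.9 ± 4.6 and znf534.L at 19.9 ± 5.2 (SD, n = 5). These 3 genes also led in fed libraries, at 16.9 ± 4.2, 15.5 ± 6.0 and 14.3 ± 3.9 CPM per kilobase. Their order held within every unfed library, but not within every fed library. Differences between these genes were not tested. Klf15.L was at rank 23 of the 41 members in fed libraries, with 0.806 CPM per kilobase, and at rank 6 in unfed libraries, with 7.03 CPM per kilobase. Klf10.S was at rank 4 in fed libraries and at rank 8 in unfed libraries.

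The comparisons at single ages asked whether the feeding difference was present early and whether it changed. At 10 dpf 9 members fell and none rose, against 9.01% lower and 11.5% higher among all genes tested. At 13 dpf 11 members fell and none rose, against 14.4% lower and 16.7% higher among all genes tested. At 10 dpf 1 member was higher at an unadjusted p under 0.05, klf10.S, and at 13 dpf there was none. DESeq2 called no member higher at either age.

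Klf15.L, klf15.S, klf9.L, LOC108706970, klf3.L, klf3.S and klf5.L were lower at both ages. Klf6.L and klf6.S were called at 10 dpf alone, and klf12.L, LOC108700053, sp1.S and sp3.L at 13 dpf alone. For klf15.L the log2 fold change was -2.32 ± 0.36 at 10 dpf (adjusted p = 0.00229) and -3.27 ± 0.38 at 13 dpf (adjusted p = 0.000349). For klf9.L it was -1.79 ± 0.52 at 10 dpf (adjusted p = 0.0306) and -3.19 ± 0.57 at 13 dpf (adjusted p = 0.00213). Klf15.S differed little between the ages, with -1.80 ± 0.28 at 10 dpf and -1.75 ± 0.27 at 13 dpf.

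The counts at single ages rested on 2 libraries a state. Without 1 library the number of members lower at 10 dpf was 2 (unfed, experiment 2), 3 (fed, experiment 2) or 5 (unfed, experiment 1). The number lower at 13 dpf was 5 (unfed, experiment 2), 6 (unfed, experiment 1) or 7 (fed, experiment 1). With no replicate block for the experiment 3 members were lower at 10 dpf and 6 at 13 dpf. The shares of all genes tested that were called in these settings are not given here. The smaller numbers are therefore not read as a result about the members.

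No member passed the test that the feeding difference itself changed between 10 and 13 dpf, and 0% of all genes tested did. At an unadjusted p under 0.05 edgeR gave 1 member, klf6.S, and 1232 genes in all, and DESeq2 also called no member. For klf6.S the log2 fold change was -1.05 ± 0.32 at 10 dpf and -0.02 ± 0.31 at 13 dpf, and the change of the difference was 1.04 ± 0.44 (edgeR adjusted p = 0.945). For klf15.L the change was -0.95 ± 0.52 and for klf9.L it was -1.40 ± 0.84.

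Age alone moved no member past the threshold. Among fed libraries 0 members differed between 13 and 10 dpf, with 0% of all genes tested called in each direction and 1 member, klf6.S, at an unadjusted p under 0.05. Among unfed libraries 0 members differed, with 0.00839% of all genes tested higher at 13 dpf and 0.0042% lower, and no member at an unadjusted p under 0.05. DESeq2 called no member in either.

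At 16 dpf each state had 1 library, so there is no test. Of the 32 tested members 24 were lower and 8 higher in the fed library, with a median log2 ratio of -0.76, against -0.04 for all genes. Klf15.L had 7 counts in the fed library and 470 in the unfed library, a ratio of CPM of 0.0230 (exact 95% interval 0.00920 to 0.0478, which covers counting error only). Klf9.L had 1 count in the fed library and 115 in the unfed library, a ratio of 0.0134 (0.000337 to 0.0764). LOC108706970 had 1 count in the fed library and 165 in the unfed library, a ratio of 0.00937 (0.000236 to 0.0529).

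Of the 19 members called over all ages, 18 kept their sign at 16 dpf, and sp1.S was the exception with a ratio of 1.04 (0.802 to 1.34). Since the 16 dpf libraries were part of the comparison over all ages, this is a description. Among the members called higher, klf10.S had the highest ratio at 16 dpf, 2.68 (2.23 to 3.23).

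**Figure D3:**
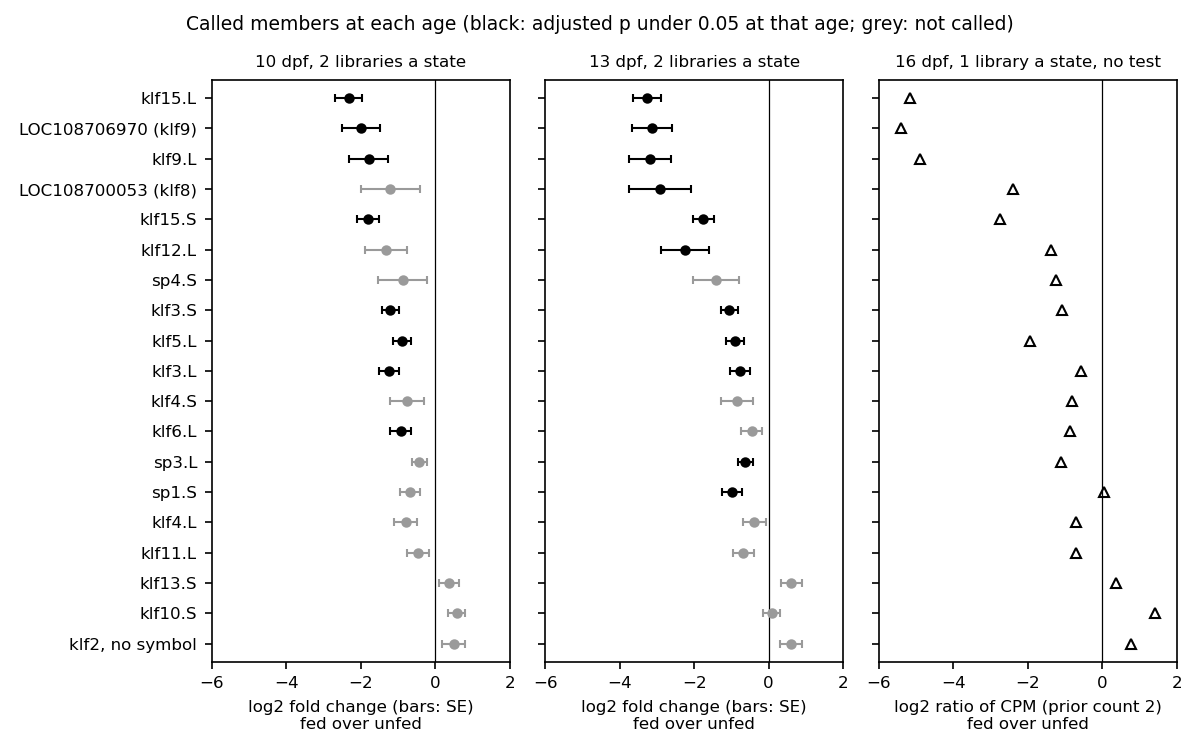
Log2 fold change of fed over unfed libraries at 10 and 13 dpf with its standard error, and the log2 ratio of CPM at 16 dpf, for the 19 members called over all ages. Klf15.L lies at -2.32 at 10 dpf and -3.27 at 13 dpf, a change that was not called. Its log2 ratio at 16 dpf, from experiment 2 alone, is -5.16, while klf3.S lies near -1 in each panel.

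The feeding difference was also set against the experiment. No member passed the feeding by experiment test, which 0.00839% of all genes tested passed, and DESeq2 called none. At an unadjusted p under 0.05 there were 3 members and 1625 genes in all (edgeR). They were LOC108706970 with a difference of -2.60 ± 0.80 between experiments (experiment 2 minus experiment 1, edgeR adjusted p = 0.556), klf9.L with -2.27 ± 0.89 (adjusted p = 0.663) and klf17.L with 1.56 ± 0.65 (adjusted p = 0.686). Experiment 2 alone holds the 16 dpf libraries.

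The .L and .S copies of a gene were compared through the change of their ratio. How reads shared by near-identical copies were counted is not given in the sources used here, so the split between copies is uncertain. Of 14 pairs with at least 1 member, 4 changed their L to S ratio with feeding (limma, adjusted p under 0.05), against 27.1% of 5375 pairs tested, a share near the background.

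In klf10 the copies were called in opposite directions over all ages. Klf10.L, whose description does not name the family, fell with a log2 fold change of -0.46 ± 0.15, whereas klf10.S rose by 0.54 ± 0.20. The klf10.L groups overlapped, and the klf10.S call was lost under several alternatives, as given above. For klf10.L the log2 fold change was -0.27 ± 0.22 at 10 dpf and -0.80 ± 0.23 at 13 dpf. For klf10.S it was 0.58 ± 0.24 at 10 dpf and 0.08 ± 0.23 at 13 dpf. The ratio of klf10.L to klf10.S was 0.790 to 0.924 in fed libraries, against 1.44 to 2.34 in unfed libraries, ranges that did not overlap. The log2 ratio changed by -1.0 ± 0.13 (adjusted p = 0.000293), and this call was made in all 14 settings tried.

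In klf15 both copies fell and klf15.L fell further. The L to S ratio was 0.333 to 2.05 in fed libraries, with a median of 0.961, and 2.01 to 3.23 in unfed libraries, with a median of 2.05. The log2 ratio changed by -1.37 ± 0.29 (adjusted p = 0.00575).

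In klf5 the ratio was 0.571 to 1.86 in fed libraries, against 1.77 to 3.1 in unfed libraries, and its log2 changed by -0.84 ± 0.24 (adjusted p = 0.0208). The adjusted p was 0.0692 without the fed 16 dpf library, 0.0733 without the unfed 16 dpf library and 0.0576 without the fed 10 dpf library of experiment 2. It was 0.0725 when counts were summed over transcript rows. In klf12 the ratio was 0.167 to 1.67 in fed libraries, against 2.07 to 2.64 in unfed libraries, with a change of -1.13 ± 0.39 (adjusted p = 0.0474). The klf12 call was kept without the fed 13 dpf or the unfed 10 dpf library of experiment 1 or the fed 10 dpf library of experiment 2, and it was lost without any single one of the other 7 libraries (adjusted p = 0.0808 to 0.141), with no replicate block (adjusted p = 0.0657) and with a prior count of 0.5 (adjusted p = 0.0747).

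The klf3 copies kept a like ratio, 0.609 to 0.864 in fed libraries, against 0.427 to 0.837 in unfed libraries, and its change of 0.20 ± 0.16 did not pass (adjusted p = 0.374). The klf6 ratio was 3.25 to 5.03 in fed libraries, against 3.82 to 4.59 in unfed libraries, with a change of -0.08 ± 0.14 (adjusted p = 0.707).

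**Figure D4:**
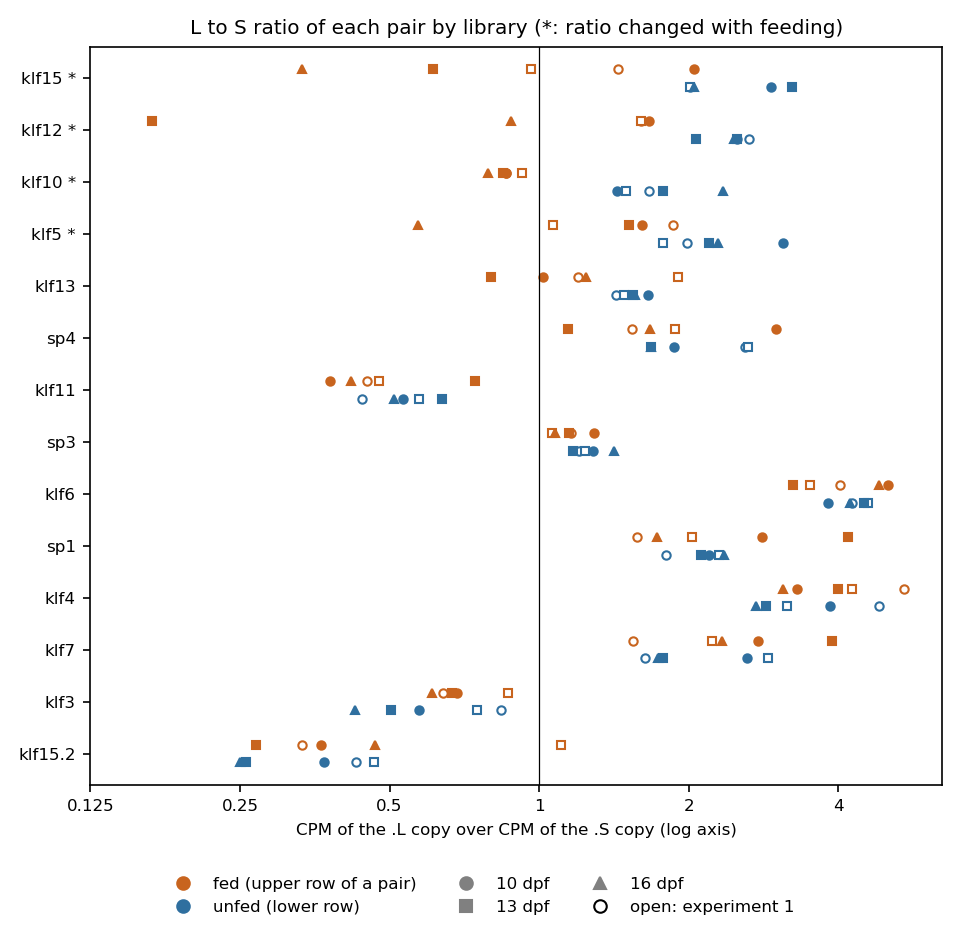
Ratio of the CPM of the .L copy to that of the .S copy in each library (log axis) for 14 pairs, fed above unfed within a pair. The klf10 ratios lie below 1 in all fed libraries and above 1 in all unfed libraries, and pairs such as klf3, klf6 and sp3 overlap.

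Genes known to be linked with the family were described through lists, read against the background over all ages of 24.4% higher and 24.5% lower. The thyroid hormone list held genes of the response that raises klf9 in tadpoles, and also receptor, cofactor and deiodinase genes. Of its 28 tested genes 5 rose and 9 fell, with a median log2 fold change of -0.28. The arginine methyltransferase genes prmt1.S (1.85 ± 0.20) and prmt1.L (1.70 ± 0.16) rose, and the membrane metalloproteinase gene mmp14.L fell (-1.14 ± 0.16), each as a log2 fold change with its SE.

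The glucocorticoid list held genes of the response that raises klf9 and klf15 in vertebrates, and also receptor, chaperone and steroid enzyme genes. Of its 29 tested genes 4 rose and 9 fell, with a median of -0.37. Pdk4, a kinase that holds back pyruvate oxidation in fasting, averaged 25.6 ± 7.8 CPM in fed libraries and 145.1 ± 22.8 CPM in unfed libraries for pdk4.S, and 22.9 ± 7.3 CPM in fed libraries and 100.9 ± 14.0 CPM in unfed libraries for pdk4.L (SD, n = 5 each). The log2 fold changes were -2.53 ± 0.19 for pdk4.S and -2.18 ± 0.21 for pdk4.L. The kinase gene sgk1.S, which glucocorticoids also raise, went the other way (0.96 ± 0.13).

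Of 32 tested enzymes of amino acid breakdown, several of which klf15 regulates in mammals, 8 rose and 5 fell, with a median of 0.13. The 8 rises ran from 0.41 to 1.3 and the 5 falls from -3.11 to -0.86, as log2 fold changes. The 3 genes with the smallest p rose. They were the transaminase genes gpt.S (1.11 ± 0.18) and gpt2.L (1.3 ± 0.25) and hibch.L (1.13 ± 0.18), of valine breakdown. Of 36 tested cofactors of the family 11 rose and 13 fell, with a median of -0.10. The Sin3 complex subunit gene sap30.L fell (-2.16 ± 0.18), as did the acetyltransferase gene kat2b.S (-1.64 ± 0.15), and wdr5.S, a subunit of histone methyltransferase complexes, rose (1.22 ± 0.14).

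Cell type markers also differed between the states. Of 25 leukocyte markers tested 21 fell and the other 4 did not pass, with a median log2 fold change of -0.91. They held 0.0252 to 0.0327% of gene counts in fed libraries, against 0.0412 to 0.0949% in unfed libraries, and none was at 0 in all libraries. Of 25 stem and progenitor markers 7 rose and 11 fell (median -0.48). The 7 that rose were genes of proliferating cells, such as mcm2.L, mcm2.S and pcna.L, with log2 fold changes of 0.90 to 2.7. The 11 that fell were other markers of this list (-1.60 to -0.60). Their relation to the lower klf5.L was not tested. Of 32 epithelium markers 6 rose and 6 fell (median 0.02), and of 15 goblet cell markers 4 rose and 3 fell (median 0.23). Of 29 smooth muscle and mesenchyme markers 6 rose and 6 fell (median -0.07), of 30 enteroendocrine markers 10 rose and 3 fell (median 0.24), and of 21 pancreas and liver markers 3 rose and 2 fell (median -0.30). The part of these cell types in the lower levels of the family in fed tubes was not tested.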

How the data were processed

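Per the submitters' processing notes the authors used HISAT2 and featureCounts; for their versions, the genome build, the use of strand and the handling of multi-mapped reads, nothing is stated in the sources used here. Per the file headers the deposited tables hold raw counts, 1 row for each of 63876 transcripts and 1 column a library, with the transcript length in bases as another deposited quantity. The 10 deposited RPKM columns were not used. Deposited totals were 12664503 to 17967762 counts a library. Rows with a blank name (0.0738% of counts) and named rows without a transcript accession (0.136%) were left out.

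The other 61159 rows were assigned to genes. Of these rows 10476 matched the RefSeq table of Xenopus_laevis_v10.1 (for names only) by accession with version and 32920 without. The rest joined a gene through neighbouring rows with the same description or a shared Xenbase identifier, or formed genes outside that table. Matched genes, 26905 of 33772, held 92.9% of the gene counts. Each gene is its transcript with the highest total count. The 41 members cover 65 rows, and 39 are in the RefSeq table. Members, lists and tests were chosen with earlier results of these data known. No sequence tables were used here, so promoters and proteins were not analysed here.

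In R 4.3.3, edgeR 4.0.16 (filterByExpr, TMM factors 0.848 to 1.098, robust quasi-likelihood F test) tested all 23825 genes that passed the filter, with Benjamini-Hochberg adjustment over all of them and a threshold of 0.05. The comparison over all ages had terms for experiment, age and feeding, and those at 10 and 13 dpf came from a fit of 6 groups and the experiment. The SE is the absolute log2 fold change divided by the square root of F. The change of the L to S ratio was tested with limma 3.58.1 (prior count 2) over 5375 pairs. DESeq2 1.42.0 was an alternative. The experiment, which the titles give, was kept as a replicate block, and its deviations correlated across genes between groups (r = 0.336 to 0.524, genes not being independent). Libraries of the same group differed by more than counting noise, so none was counted as a repeat. The edgeR, DESeq2 and limma steps were tested on simulated data.

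Values in every library are given for the 16 called members with the smallest p in the comparison over all ages. They are also given for the other .L or .S copy of the same symbol where that copy is a member. Other members are given by ranges, counts or fold changes. From each other list at most the 3 genes with the smallest p are named. Alternatives were the scaling, DESeq2, no filter, no block, the age of the stage field, the sum over or all transcripts, removal of a length trend, each experiment alone, members chosen by symbol and leaving out each library. Leaving out both 16 dpf libraries was added after seeing the data.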

Additional observations from a re-analysis of the deposited data

How the results depend on the processing

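Klf3.L, klf3.S, klf9.L, LOC108706970, klf15.L and klf15.S kept their direction and their call over all ages under all 21 alternatives. Each of the other members called over all ages lost its call with experiment 1 alone, while its direction stayed. Calls were fewer among all genes too. With experiment 1 alone 2161 of 22980 genes tested were higher and 1778 lower. With all libraries 5806 of 23825 were higher and 5829 lower. Over all ages the number of members called lower, 16 with all libraries, was 14 to 16 when single libraries were left out. It was 6 with experiment 1 alone. Such a number takes in newly called members. Without the fed 10 dpf library of experiment 2, klf4.L, sp1.S and sp4.S lost the call and znf534.L gained it. The 3 called higher were 2 by DESeq2, 1 with no replicate block, 0 with experiment 1 alone, 1 with experiment 2 alone, 1 without both 16 dpf libraries and 0 to 3 when single libraries were left out. They were 0 without the fed 13 dpf library of experiment 2, and 1 without the unfed 13 dpf library of experiment 2 or either 16 dpf library.

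At 10 dpf the 9 called lower were 3 with no replicate block and 2 to 11 when single libraries were left out, and 1 member was called higher after removal of the length trend. At 13 dpf the 11 called lower were 6 with no replicate block, 7 with the age of the stage field and 5 to 12 when single libraries were left out. None was called higher at 13 dpf, but 1 was with the age of the stage field and 0 to 2 were when single libraries were left out (2 without the fed library of experiment 1 and 1 without that of experiment 2). At these ages a lone library was assumed to vary like the other groups. The numbers of members at these ages also take in newly called members. The shares of all genes tested that were called at these ages under the alternatives are not given here. The feeding by experiment test called 0 to 1 members (1 without the fed 10 dpf library of experiment 2), and the 4 pairs with a changed L to S ratio were 2 to 4 (2 without either 16 dpf library). The block changed no call of a member over all ages other than those of the klf2 gene without a symbol (adjusted p = 0.117) and klf10.S (0.0530).

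Signs turned only in members that were not called. With experiment 1 alone the log2 fold change was -0.46 for klf17.L, -0.17 for klf17.1.S, -0.17 for klf8.L and -0.26 for klf2.S. With experiment 2 alone it was -0.065 for klf13.L and 0.084 for klf7.L. Without both 16 dpf libraries it was 0.090 for klf15.2.S, -0.14 for klf17.1.S, -0.068 for klf8.L and 0.0076 for klf7.L. With the age of the stage field it was -0.0066 for klf13.L and 0.015 for klf7.L, and without the length trend 0.12 for klf7.L. When single libraries were left out it ran from -0.092 to 0.44 for klf15.2.L, from -0.48 to 0.11 for klf15.2.S, from -0.086 to 0.24 for klf13.L, from -0.13 to 0.35 for klf17.1.S, from -0.11 to 0.20 for klf8.L, from -0.23 to 0.022 for klf7.L and from -0.093 to 0.20 for klf2.S. The cause of these shifts was not tested. The 9 members under the filter had too few counts to be tested, and 2 libraries a state limited the comparisons at single ages.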
